A study of Mus musculus with 8 samples.

Results

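Among genes little studied in T follicular helper (Tfh) cells, 9 were followed across the 4 groups of this mouse RNA-seq series. They were Padi4, Sostdc1, Cebpa, Fam43a, Matk, Slc16a5, Sccpdh, Tspan5 and Ighm. These 9 of the 39179 genes in the count files were picked because their counts were far higher in the Tfh than in the non-Tfh libraries, so that difference is described here and not tested. What was tested is whether an induced Bach2 vector changed each of them. All 9 were among the 11475 genes that passed the filter on low counts, and Padi4, Cebpa and Fam43a passed it only through the Tfh libraries, where they are high.

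The donors were Smarta mice, which have a T cell receptor transgene specific for the viral peptide GP61-80, crossed to a CreERT2 line, which carries a Cre recombinase that tamoxifen activates. Their T cells received either a retroviral vector with inducible Bach2 or an empty vector, were transferred to C57BL/6 hosts and met their peptide and nitrophenol on mouse serum albumin, given under the skin. All groups alike carried CreERT2 and a vector, were given tamoxifen by the intraperitoneal route on day 5 and were taken 18 hours later, on day 6, from inguinal lymph nodes that had been pooled. The sort took Thy-1.1+ CD44hi cells that were CXCR5+ PD-1+ (Tfh) or CXCR5- PD-1- (non-Tfh), which made 4 groups of 2 libraries: Tfh with empty vector, Tfh with Bach2, non-Tfh with empty vector and non-Tfh with Bach2. The ages of the mice and whether the replicates are separate animals or cultures are not given in the labels, so the p-values below measure only the spread between these libraries, which may be technical. C57BL/6 hosts have B cells, myeloid cells and T cells of their own.

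Tfh cells are the helper T cells that enter B cell follicles and support germinal centres, where B cells mutate and select their antibodies. They are defined by the chemokine receptor CXCR5, the inhibitory receptor PD-1 and the repressor Bcl6. Bach2 is a transcription repressor of the basic leucine zipper family that restrains effector differentiation in lymphocytes and pairs with small Maf proteins on the Maf recognition element, a DNA element whose core reads TGANTCA.

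Library totals ran from 7862879 to 9889859 counts, so that 3 counts, which a library at 0 counts could still hide at 95% confidence, corresponded to 0.303 to 0.382 CPM (counts scaled to each library's size). Bach2 itself was 12.6 and 128 CPM in Tfh cells with empty and Bach2 vector, and 26.9 and 144 CPM in non-Tfh cells. Cxcr5, a gene of the sort, was 754.5 ± 85.2 CPM in Tfh and 22.8 ± 7.70 CPM in non-Tfh cells with empty vector (SD, n = 2), and Pdcd1, which encodes PD-1, was 557 ± 145 and 182 ± 28.6 CPM. Count intervals below treat each count as independent and leave out the spread between replicates. Reads were not tagged with molecular identifiers, so copies of a molecule cannot be told apart. Replicates of a group spread more than counting alone would give (chi-square per degree of freedom 5.77 to 8.97). The intervals are thus too narrow as bounds on a difference between groups.

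The upstream sequences of 2 genes are shown as a description. The window of Padi4 holds the letters TGACTCA. Cebpa had the lowest estimated vector effect in Tfh cells, and its window holds none of the motifs searched. A link between these letters and the vector effect was not tested. Both are taken from RefSeq on GRCm38.p6, run 5′ to 3′ on the gene's strand and end at the base before the gene's annotated start. Capitals mark the match to TGANTCA. The Padi4 stretch is chr4:140774237-140774453 on the minus strand and the Cebpa stretch is chr7:35119043-35119292 on the plus strand.
Padi4: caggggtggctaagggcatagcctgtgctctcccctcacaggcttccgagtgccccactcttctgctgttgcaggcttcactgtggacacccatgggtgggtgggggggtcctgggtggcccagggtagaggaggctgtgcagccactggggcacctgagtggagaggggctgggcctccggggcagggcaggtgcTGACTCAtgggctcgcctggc
Cebpa: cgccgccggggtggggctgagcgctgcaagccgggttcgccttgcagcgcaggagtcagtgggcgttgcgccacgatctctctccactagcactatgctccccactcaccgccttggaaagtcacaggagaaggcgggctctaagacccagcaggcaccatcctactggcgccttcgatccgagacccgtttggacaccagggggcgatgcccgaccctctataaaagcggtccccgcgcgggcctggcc

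RefSeq windows of 300 bases, from 250 before to 50 after a start, were matched for 6 of the 9 genes (Padi4, Cebpa, Fam43a, Matk, Sccpdh and Tspan5). Both strands were searched for the core TGANTCA and for the left part of the Maf recognition element, which reads TGCTGA. They were also searched for the longer Maf recognition element in which these share 3 letters, and for TTCNNNGAA, the element of STAT factors. Padi4 held the core TGANTCA, first base 54 bases before RefSeq's start, within the longer element, and the left part once more 4 bases after the start. Of all 32851 windows of this length, 7.81% held the core, 19.5% the left part, 0.423% the longer element and 8.30% the STAT element. The windows of the other 5 genes held none of the 4 motifs, which says only that these letters are not in these windows. A match is a description of letters and not evidence that a factor binds.

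The 9 genes differed widely in how low they went in non-Tfh cells. Padi4, Sostdc1, Cebpa and Fam43a were near 0 there, Sccpdh, Slc16a5 and Matk had 22 to 171 counts per library, and Tspan5 and Ighm were well expressed. The name Tfh-restricted therefore does not describe Tspan5 and Ighm: their non-Tfh level was 31.2% and 48.4% of their Tfh level with empty vector, against 32.7% for the sort gene Pdcd1 and 3.02% for Cxcr5. In bulk RNA, fewer cells that express a gene and less RNA per cell cannot be told apart. The plot of raw counts shows the 3 kinds of pattern.

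**Figure D1:**
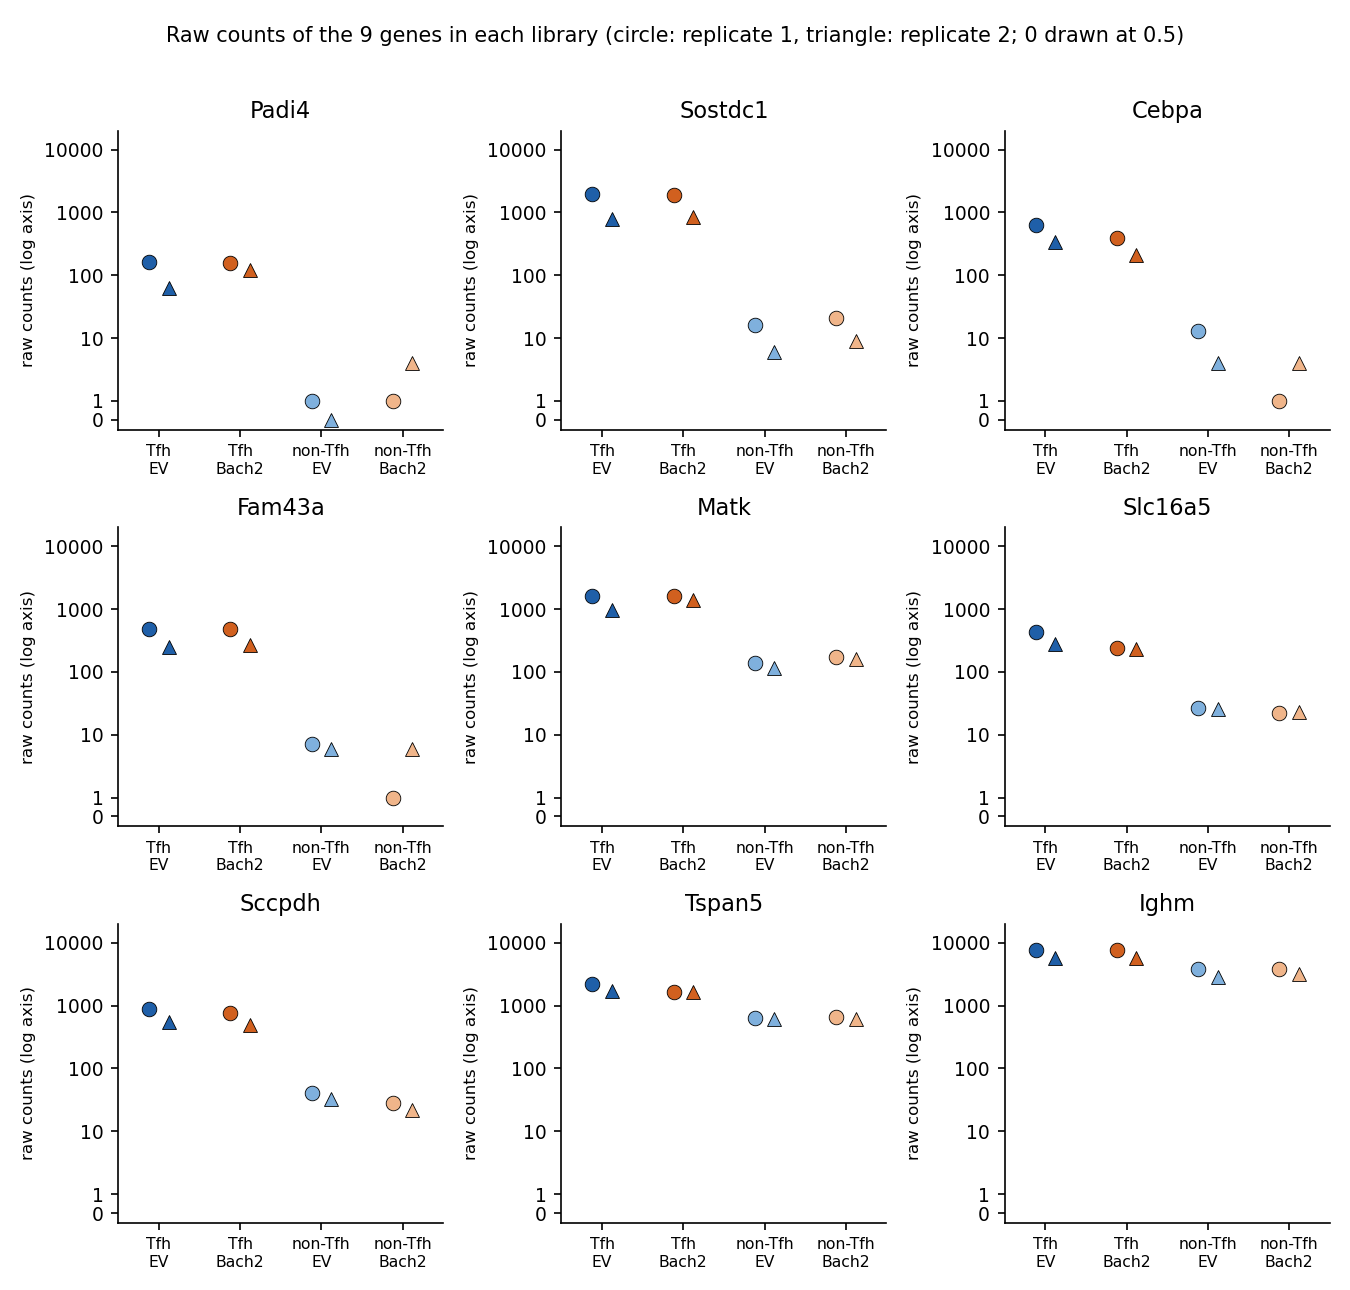
Raw counts (log axis, with 0 drawn at 0.5) of the 9 genes in each of the 8 libraries, by cell type and vector (EV, empty vector). Circles are replicate 1 and triangles replicate 2. Padi4 has 0 to 4 counts in the 4 non-Tfh libraries against 62 to 160 in the 4 Tfh libraries, whereas Ighm has 2866 to 3818 counts in non-Tfh libraries.

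Padi4 encodes an enzyme that converts arginine to citrulline in histones and other proteins, best known from neutrophils (chromosome 4, 140745865 to 140774236, GRCm38). It had 160 and 62 counts in Tfh cells with empty vector and 154 and 123 with Bach2. In non-Tfh cells it had 1 and 0 counts with empty vector and 1 and 4 with Bach2. Replicate 2 of the empty vector was the low Tfh library, and every non-Tfh library was far below every Tfh library. Pooled over replicates, 222 counts stood against 1 with empty vector, a ratio of 226 in CPM with a counting interval from 40.1 to 8947, and 277 against 5 with Bach2, a ratio of 59.8 (25.3 to 186). The 1 non-Tfh count with empty vector leaves the first ratio loosely bounded from above.

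Cebpa encodes C/EBP alpha, the transcription factor that drives the myeloid lineage, and has a gene body of a single stretch (chromosome 7, 35119293 to 35121928). It had 620 and 342 counts in Tfh cells with empty vector and 394 and 212 with Bach2. Non-Tfh cells had 13 and 4 counts with empty vector and 1 and 4 with Bach2. The non-Tfh level was 1.77% of the Tfh level with empty vector and 0.761% with Bach2. In each vector group of Tfh cells replicate 1 was the higher library.

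Sostdc1 encodes a secreted antagonist of BMP and Wnt signalling, related to sclerostin (chromosome 12, 36314139 to 36318452). Its counts were 1976 and 794 in Tfh cells with empty vector and 1867 and 842 with Bach2. In non-Tfh cells they were 16 and 6 with empty vector and 21 and 9 with Bach2. In all 4 groups replicate 1 had over 2 times the counts of replicate 2, so the replicates of a group lay further apart than the vector groups. The Tfh level was 128-fold the non-Tfh level with empty vector (counting interval 84.3 to 204) and 97.5-fold with Bach2 (68.2 to 145).

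Fam43a encodes a little-known protein with a phosphotyrosine-interaction domain (chromosome 16, 30599723 to 30602797). Counts were 487 and 247 in Tfh cells with empty vector and 478 and 268 with Bach2. Non-Tfh cells had 7 and 6 counts with empty vector and 1 and 6 with Bach2. Non-Tfh values were thus at most 7 counts in any library, and the Tfh to non-Tfh ratio was 57.4 with empty vector (33.3 to 108) and 115 with Bach2 (55.6 to 287), 2 intervals that overlap.

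Matk encodes the Csk-homologous kinase, which, like Csk, phosphorylates the inhibitory tail of Src family kinases (chromosome 10, 81252935 to 81263365). It had 1600 and 980 counts in Tfh cells with empty vector and 1636 and 1378 with Bach2. Non-Tfh cells had 137 and 114 counts with empty vector and 171 and 162 with Bach2. Non-Tfh cells held 9.71% of the Tfh level with empty vector and 10.3% with Bach2, so Matk was low but plainly measured there.

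Slc16a5 encodes a monocarboxylate transporter of the family that also carries lactate (chromosome 11, 115462474 to 115474398). Tfh cells had 433 and 280 counts with empty vector and 240 and 231 with Bach2. Non-Tfh cells had 27 and 26 counts with empty vector and 22 and 23 with Bach2. The Tfh values with empty vector were both above those with Bach2, and non-Tfh libraries differed by no more than 5 counts among themselves. A gene model on the opposite strand, Gm11695, overlaps Slc16a5 and had 3.88 CPM in Tfh and 0.329 CPM in non-Tfh cells with empty vector. The library kit named in the labels does not mark strand, so reads in the overlap cannot be told apart.

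Sccpdh encodes a protein named for its likeness to saccharopine dehydrogenase (chromosome 1, 179668210 to 179687189). Its counts were 875 and 554 in Tfh cells with empty vector and 763 and 484 with Bach2. In non-Tfh cells they were 41 and 33 with empty vector and 28 and 22 with Bach2. The non-Tfh libraries were low but not near 0, at 5.16% of the Tfh level with empty vector and 3.76% with Bach2.

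Tspan5 encodes a tetraspanin that guides the protease ADAM10 to its substrates, Notch among them (chromosome 3, 138742195 to 138907905). Its counts were 2214 and 1683 in Tfh cells with empty vector and 1677 and 1624 with Bach2. Non-Tfh cells had 631 and 603 counts with empty vector and 648 and 623 with Bach2. This is a 3.21-fold ratio with empty vector (3.01 to 3.42) and a 2.80-fold ratio with Bach2 (2.63 to 2.99).

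Ighm, the gene of the constant region of the IgM heavy chain (chromosome 12, 113418558 to 113422730), is textbook B cell biology. Here it had 7818 and 5817 counts in Tfh cells with empty vector and 7547 and 5646 with Bach2. In non-Tfh cells it had 3818 and 2866 counts with empty vector and 3808 and 3131 with Bach2. The ratio was 2.07 with empty vector (2.01 to 2.13) and 2.05 with Bach2 (1.99 to 2.11), the lowest of the 9 genes. The fit, which takes in the spread between replicates, gave wider errors: log2 ratios of 1.05 (SE 0.157) and 1.03 (SE 0.157). Counts per gene do not show whether these transcripts carry a rearranged variable segment.

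Ranked by the fitted log2 ratio of Tfh over non-Tfh cells with empty vector among the 11475 genes, Padi4 was at rank 5, Sostdc1 at 7, Cebpa at 20, Fam43a at 21, Sccpdh at 33, Slc16a5 at 44 and Matk at 60. Tspan5 was at rank 254 and Ighm at 560, beside Cxcr5 at 25 and Pdcd1 at 273. With Bach2, Cebpa stood at rank 8, Fam43a at 9 and Padi4 at 21. The 4 genes with single-digit or low double-digit counts in non-Tfh libraries changed their order between the vectors, and their ratios move with a handful of counts. In this comparison 10.6% of tested genes were called higher in Tfh cells with empty vector and 11.6% with Bach2. All 9 genes had non-overlapping, higher CPM in Tfh cells, as did 31.3% of tested genes with empty vector and 29.3% with Bach2, and nothing is read from that count because the genes were chosen for it.

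On a scale per gene length, Ighm was the most abundant of the 9 in Tfh cells with empty vector. It reached 403 ± 18.1 RPKM, which is CPM divided by the exon length in kilobases (SD, n = 2), and Sostdc1 followed at 83.9 ± 38.8 RPKM. Matk (31.0 ± 5.62 RPKM) and Tspan5 (29.4 ± 0.874 RPKM) came next and did not differ beyond their spread. Cebpa (20.0 ± 5.08 RPKM) and Fam43a (13.0 ± 4.05 RPKM) overlapped within their spread too, as did Slc16a5 (10.7 ± 1.53 RPKM) and Sccpdh (10.4 ± 1.65 RPKM). Padi4 was lowest at 2.47 ± 1.20 RPKM, so a gene of rank 5 by ratio was the least abundant of the set. Taking the longest transcript as the length in place of all exons put Sccpdh at 22.2 RPKM, at rank 5 instead of 8. It also put Matk at 47.7 ± 8.65 RPKM and Tspan5 at 32.7 ± 0.971 RPKM, apart beyond their spread. In non-Tfh cells with empty vector the levels ran from 195 ± 36.6 RPKM for Ighm and 9.20 ± 0.165 RPKM for Tspan5 down to 0.0113 RPKM for Padi4.

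None of the 9 genes passed the threshold for a Bach2 effect in Tfh cells. In edgeR's quasi-likelihood test, adjusted by Benjamini-Hochberg over all 11475 genes, 0 of the 9 had an adjusted p below 0.05 (1 of them, Slc16a5, below 0.1), against 1.71% of tested genes called (196, of which 63, or 0.549%, rose and 133, or 1.16%, fell). That background itself depended on single libraries: it was 15 genes without empty vector Tfh replicate 2 and 36 without Bach2 Tfh replicate 2. The 9 estimates ran from -0.63 to 0.39 on the log2 scale, where the median of all tested genes was -0.000538. The plot of vector effects shows them with their intervals.

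**Figure D2:**
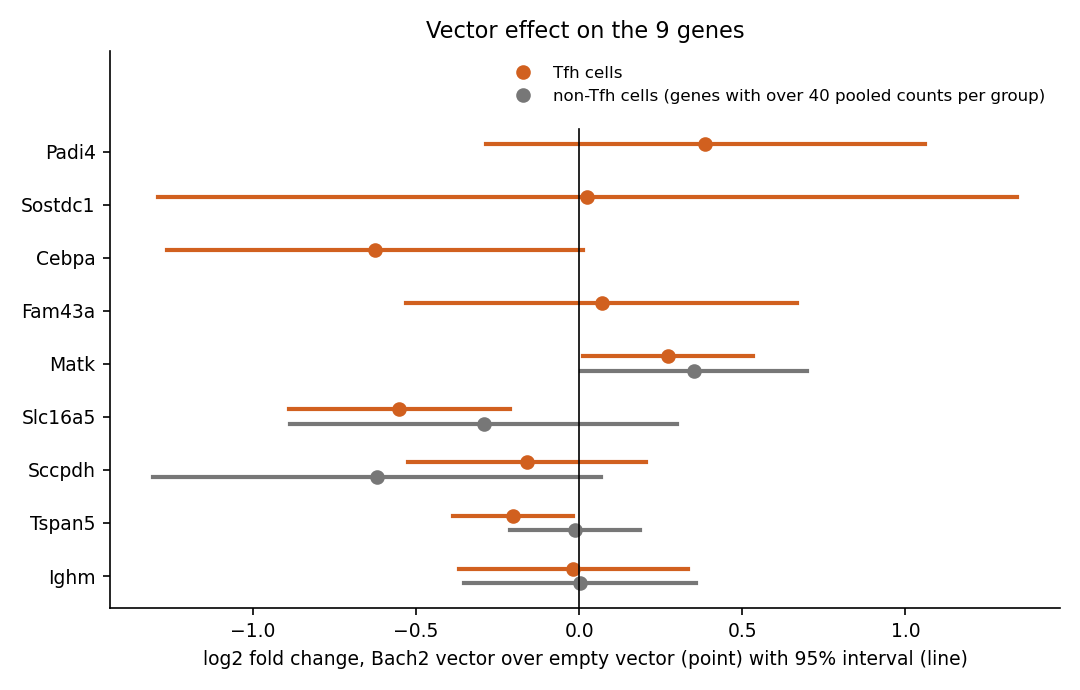
Log2 fold change of Bach2 over empty vector for the 9 genes (horizontal axis; points are estimates of edgeR's fit and lines their 95% intervals), in Tfh cells and, for the 5 genes with over 40 pooled counts in each non-Tfh group, in non-Tfh cells. Slc16a5 lies lowest relative to its interval in Tfh cells (-0.55, from -0.89 to -0.21), and Sostdc1 has the widest interval (-1.29 to 1.34).

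Slc16a5 came nearest to the threshold. It was 43.4 and 35.4 CPM in Tfh cells with empty vector and 26.0 and 27.9 CPM with Bach2, so the groups did not overlap. The log2 fold change was -0.55 (SE 0.158, 95% interval -0.89 to -0.21, unadjusted p = 0.0037, adjusted p = 0.0983). Over the alternatives tried the adjusted p ran from 0.0535 to 0.388, and the estimate from -0.69 to -0.39. In non-Tfh cells the values were 2.95 and 2.89 CPM with empty vector and 2.40 and 2.36 CPM with Bach2 (-0.29, SE 0.277, adjusted p = 0.795).

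Cebpa had the lowest estimate and a wide error. It was 62.2 and 43.3 CPM with empty vector and 42.8 and 25.6 CPM with Bach2, so that the higher Bach2 library lay just below the lower empty vector library. The log2 fold change was -0.63 (SE 0.283, interval -1.26 to 0.01, adjusted p = 0.325). With no filter on low counts the same estimate passed the threshold (-0.63, SE 0.167, adjusted p = 0.00860), and with DESeq2 it did not (-0.62, SE 0.554, adjusted p = 0.690). In non-Tfh cells 17 pooled counts with empty vector stood against 5 with Bach2, a ratio of 0.283 with a counting interval from 0.0815 to 0.798, which leaves out the spread between replicates, whose counts were 13 and 4 with empty vector. The fitted test gave an adjusted p of 0.631.

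Matk was 1 of the 9 genes, and 8.35% of tested genes, whose CPM was higher and non-overlapping with Bach2 in each cell type. Tfh cells had 161 and 124 CPM with empty vector and 178 and 166 CPM with Bach2 (log2 fold change 0.27, SE 0.121, adjusted p = 0.294). In non-Tfh cells it had 14.9 and 12.7 CPM with empty vector and 18.7 and 16.6 CPM with Bach2 (0.35, SE 0.161, adjusted p = 0.477). These differences were not past the threshold in either cell type.

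Tspan5 was 222 and 213 CPM with empty vector and 182 and 196 CPM with Bach2 in Tfh cells, again without overlap (-0.20, SE 0.0861, interval -0.39 to -0.02, adjusted p = 0.266). In non-Tfh cells it was 68.8 and 67.1 CPM with empty vector against 70.7 and 64.0 CPM with Bach2 (-0.01, interval -0.21 to 0.19, adjusted p = 0.987). In Tfh cells, Slc16a5, Cebpa and Tspan5 were thus 3 genes of the 9 that were lower without overlap, and Matk 1 that was higher. Of all tested genes, 22.9% were lower without overlap and 21.7% higher, so the 4 of 9 are close to the background.

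Ighm had 784 and 736 CPM with empty vector against 819 and 682 CPM with Bach2 in Tfh cells. The log2 fold change was -0.02 (interval -0.37 to 0.33, adjusted p = 0.969). In non-Tfh cells Ighm was 416 and 319 CPM with empty vector and 416 and 322 CPM with Bach2, an estimate of 0.0035 (interval -0.35 to 0.36). Sccpdh was 87.8 and 70.1 CPM with empty vector and 82.8 and 58.5 CPM with Bach2 in Tfh cells (-0.16, interval -0.53 to 0.20, adjusted p = 0.711). In non-Tfh cells Sccpdh had 4.47 and 3.67 CPM with empty vector and 3.06 and 2.26 CPM with Bach2 (-0.62, interval -1.31 to 0.07, adjusted p = 0.549).

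For the other 3 genes the vector groups overlapped in Tfh cells. Padi4 had 16.1 and 7.85 CPM with empty vector and 16.7 and 14.9 CPM with Bach2 (0.39, interval -0.29 to 1.06, adjusted p = 0.608). Fam43a had 48.9 and 31.3 CPM with empty vector and 51.9 and 32.4 CPM with Bach2 (0.07, interval -0.53 to 0.67, adjusted p = 0.932). Sostdc1 had 198 and 100 CPM with empty vector and 203 and 102 CPM with Bach2 (0.02, interval -1.29 to 1.34, adjusted p = 0.989). The Sostdc1 interval allows a change of over 2-fold in either direction, because its replicates differ by about as much.

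In non-Tfh cells 0 of the 5 genes with over 40 pooled counts per group passed the threshold, against 0.871% of tested genes called (100, of which 29, or 0.253%, rose and 71, or 0.619%, fell). That count fell to 14 and 28 without empty vector non-Tfh replicate 2 and 1, and to 66 and 41 without Bach2 replicate 1 and 2. Padi4, Sostdc1, Cebpa and Fam43a had too few counts there for the test to be informative, and their raw counts are given instead. The cut at 40 was not part of the plan. By the fitted test these 4 genes did not pass either (edgeR adjusted p from 0.631 to 0.970). Padi4 had 5 pooled counts with Bach2 and 1 with empty vector, a ratio of 4.80 with a counting interval from 0.538 to 227, and Fam43a had 7 and 13, a ratio of 0.517 (0.175 to 1.40). Sostdc1 had 30 and 22 pooled counts, a ratio of 1.31 (0.731 to 2.38). The intervals of these 3 genes include 1, and 4 of the Padi4 counts with Bach2 came from replicate 2. In CPM, Matk was higher and Slc16a5 and Sccpdh were lower without overlap between vector groups, against 20.9% and 21.3% of tested genes. The raw counts of Padi4, Cebpa and Fam43a tied between the vectors in 1 library each (1, 4 and 6 counts), so no order is read for them.

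Whether the vector acted differently in the 2 cell types was tested as the difference of the vector effects. No gene of the 11475 passed the threshold by edgeR's quasi-likelihood test (539 had an unadjusted p below 0.05, and DESeq2 called 4), so that 0% were called, and the adjusted p was 0.998 for each of the 9. The difference was -0.19 for Tspan5 (interval -0.46 to 0.08), -0.02 for Ighm (-0.52 to 0.48), -0.08 for Matk (-0.51 to 0.35) and -0.26 for Slc16a5 (-0.95 to 0.43). For Padi4, Sostdc1, Cebpa and Fam43a the interval spanned at least 4 log2 units, so at these counts a difference was not detectable.

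Several of the 9 genes were unequal between replicates, and unequal in the same sense. In Tfh cells with empty vector all 9 were higher in replicate 1 than in replicate 2 in CPM (median ratio 1.29), and with Bach2 7 of 9 were (median ratio 1.20). Sostdc1 stood at a ratio of 1.97 with empty vector and 1.99 with Bach2 in Tfh cells, and 2.61 and 2.48 in non-Tfh cells. Only 2.55% of tested genes had a ratio at least as high in Tfh cells with empty vector, and 2.41% with Bach2. Padi4 had a ratio of 2.05 with empty vector but 1.12 with Bach2.

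The known Tfh genes leaned the same way and the non-Tfh effector genes the other way. Of 12 Tfh markers, 10 were higher in replicate 1 with empty vector (median ratio 1.22) and 11 with Bach2 (1.16). Of 9 non-Tfh effector markers, 1 was higher in replicate 1 in each vector group (median ratio 0.719 and 0.737). Of 11 T cell markers, 7 were higher in replicate 1 with empty vector (median ratio 1.02) and 10 with Bach2 (1.09), so with Bach2 the lean was not particular to Tfh genes. Over all tested genes 50.1% and 51.3% were higher in replicate 1. The part of this lean in the vector comparison was not tested. Over the 65 tested genes of all marker lists, 0 were called for the vector effect in Tfh cells and 1 in non-Tfh cells, against 1.71% and 0.871% of all tested genes. This was Prdm1, which encodes Blimp-1, the factor that opposes Bcl6, and it fell in non-Tfh cells from 28.5 ± 1.62 to 12.3 ± 3.15 CPM (SD, n = 2; log2 fold change -1.21, edgeR adjusted p = 0.0212). Replicate numbers are not stated to mark a shared batch, and 24.8% of tested genes were higher in replicate 1 in both Tfh groups.

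**Figure D3:**
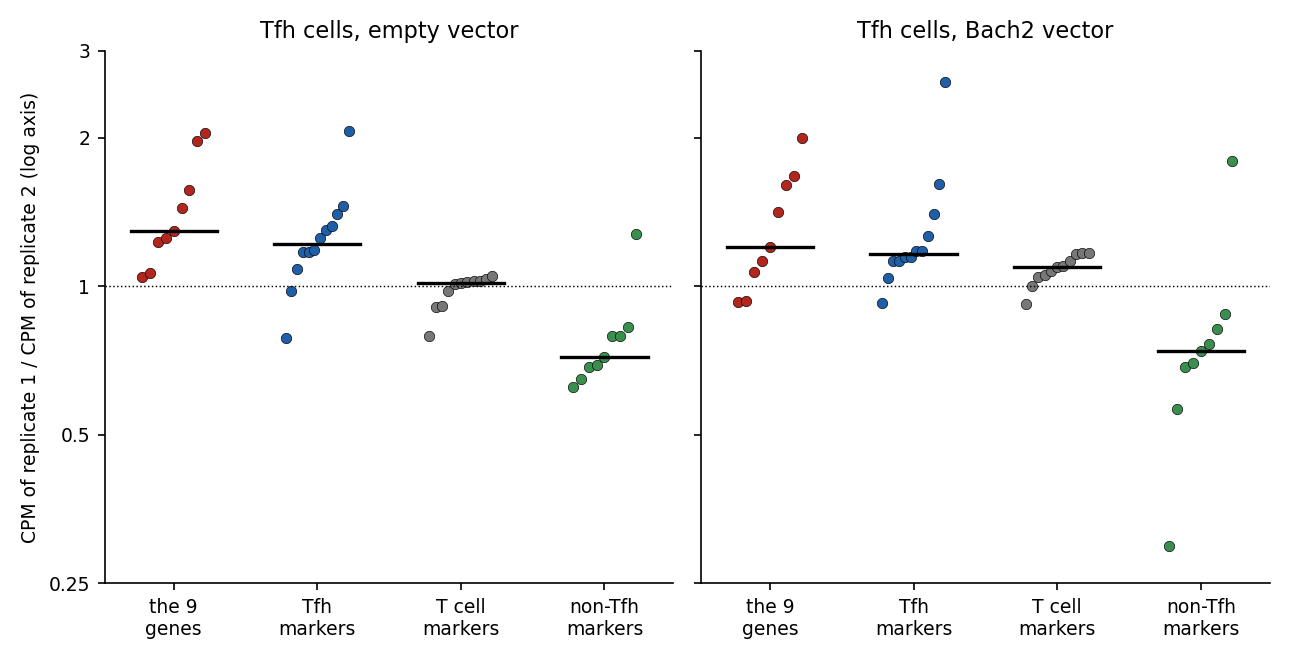
CPM of replicate 1 over replicate 2 (log axis) in Tfh cells with empty vector (left) and Bach2 (right), for the 9 genes and for markers of Tfh, T and non-Tfh effector cells. Points are genes and short lines medians. The medians of the 9 genes are 1.29 and 1.20, those of the non-Tfh effector markers 0.719 and 0.737.

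Because host cells could carry some of these transcripts into a sort, markers of other cells were read beside them. Of 14 neutrophil genes, listed beside Padi4 and Cebpa, none passed the filter and 9 (S100a8, S100a9, Elane, Mpo, Retnlg, Camp, Ngp, Ltf and Cebpe) were at 0 in all 8 libraries. Their summed level was 0.242 to 2.02 CPM in the 4 Tfh libraries and 1.23 to 1.75 CPM in the 4 non-Tfh libraries, while Cebpa was 25.6 to 62.2 CPM in Tfh libraries. The 13 monocyte and macrophage genes, of which 6 passed the filter and Mertk was at 0 throughout, summed to 17.9 to 22.8 CPM in Tfh and 11.8 to 18.7 CPM in non-Tfh libraries. With empty vector 1 of the 6 was called higher in Tfh cells and 1 lower. These were Cd68 (edgeR log2 fold change 2.31, adjusted p = 0.00137) and Itgam (-2.34, adjusted p = 0.00211). The part of the 13 genes in the Cebpa level was not tested.

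B cell genes were read beside Ighm. The 20 genes of the list, of which 11 passed the filter, summed to 252 to 379 CPM in Tfh and 119 to 222 CPM in non-Tfh libraries. Most of this came from Cd22 and Pou2af1, which were higher in Tfh cells with empty vector (edgeR log2 fold change 0.82 and 2.53, adjusted p = 0.00023 and 4.8e-07). Cd22 was 211 ± 26.8 CPM there against 120 ± 6.30 CPM in non-Tfh cells, and Pou2af1 104 ± 11.7 against 17.9 ± 2.32 CPM. The B cell sum was thus higher in the cell type where Ighm was higher. Over the 11 tested genes, however, the median log2 fold change was -0.85, so most of them had negative estimates. Cd74, the most abundant of the others, was 16.4 ± 2.94 CPM in Tfh and 32.6 ± 20.2 CPM in non-Tfh cells with empty vector (edgeR adjusted p = 0.505). Pou2af1 also stands in the list of Tfh markers. The part of the B cell list in the Ighm level was not tested.

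The other 8 immunoglobulin constant genes, of which 2 passed the filter and Igha and Ighe were at 0 throughout, summed to 0.966 to 2.61 CPM in Tfh and 2.88 to 36.9 CPM in non-Tfh libraries. The non-Tfh excess lay mostly in replicate 1 (10.1 CPM with empty vector, 36.9 with Bach2). Replicate 2 was at 3.67 and 2.88 CPM, close to the highest Tfh libraries. Among them the light chain gene Igkc, which antibody-making B cells express strongly, had 18 and 11 counts in Tfh cells with empty vector and 8 and 4 with Bach2. In non-Tfh cells it had 50 and 4 counts with empty vector and 88 and 9 with Bach2. Igkc counts were 0.0708% to 0.230% of the Ighm counts in Tfh libraries and 0.140% to 2.31% in non-Tfh libraries. Cd79a, a signalling chain of the B cell receptor, had 2 to 17 counts in Tfh libraries and 7 to 27 in non-Tfh libraries. Mostly through Cd22 and Pou2af1 on the B cell side, the sums of the 2 lists thus moved in opposite directions between the cell types. Their median log2 fold changes with empty vector were both negative (-0.85 and -2.72, the latter over 2 tested genes). The cells that carry the Ighm transcripts were not identified by these values.

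**Figure D4:**
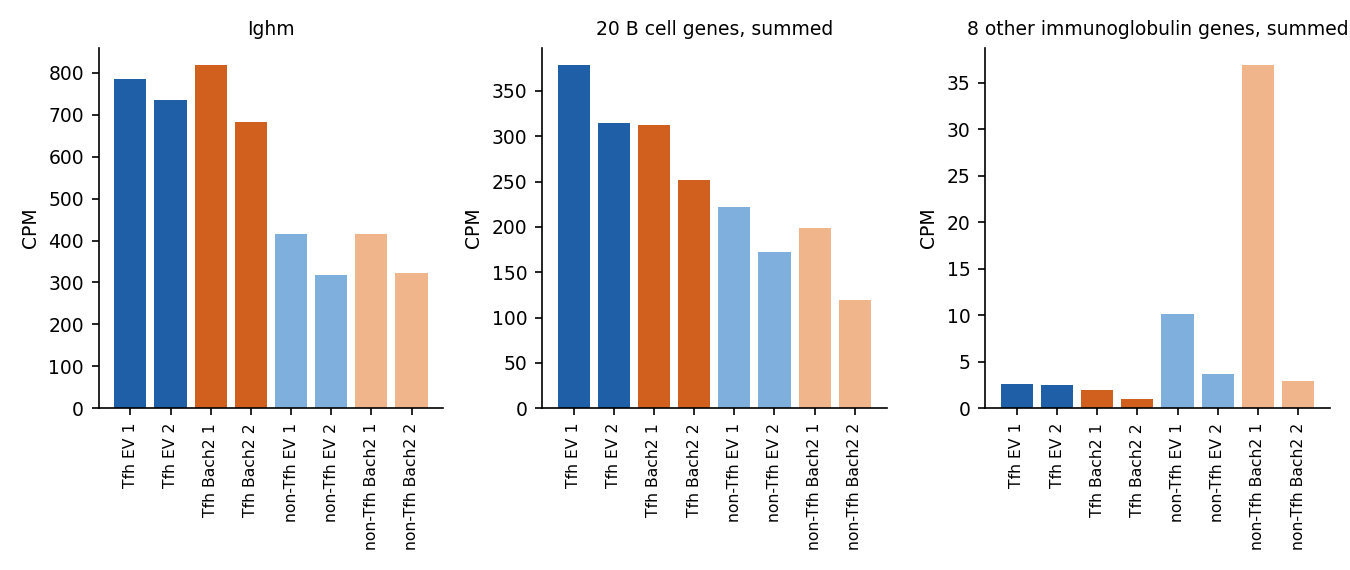
Ighm (left), the sum of the 20 B cell genes (middle) and the sum of the other 8 immunoglobulin constant genes (right), all in CPM on separate axes, in each library, labelled by cell type, vector (EV, empty vector) and replicate. Bars are single libraries, and most of the B cell sum is from Cd22 and Pou2af1. Ighm is 682 to 819 CPM in Tfh and 319 to 416 CPM in non-Tfh libraries, the B cell sum 252 to 379 and 119 to 222 CPM, and the immunoglobulin sum 0.966 to 2.61 and 2.88 to 36.9 CPM.

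The relatives of each gene were taken from lists of family and pathway members. Of these relatives, 56 of which were tested, none passed the threshold for the vector effect in either cell type in any of the 9 family lists, against a background of 1.71% and 0.871%. Between Tfh and non-Tfh cells with empty vector, where 21.9% of tested genes were called, they went in both directions. That background of 2515 genes was 1340 and 1656 without empty vector non-Tfh replicate 2 and 1, and 1401 without empty vector Tfh replicate 1.

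Among the peptidylarginine deiminases, Padi2 was the only relative of Padi4 that passed the filter. It was lower in Tfh cells, at 2.04 ± 0.379 CPM against 18.9 ± 3.07 CPM (log2 fold change -3.18, SE 0.350, adjusted p = 1.99e-05), the opposite of its neighbour in the same gene cluster. With Bach2 its estimate was 0.29 in Tfh cells (adjusted p = 0.809) and -0.57 in non-Tfh cells (adjusted p = 0.521). The 2 enzymes were thus at their higher level in opposite cell types.

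Of 25 other BMP and Wnt pathway genes around Sostdc1, 9 passed the filter and 11 were at 0 in all libraries, among them the ligands Bmp2, Bmp4 and Bmp6 and the antagonists Nog, Chrd and Sost. In Tfh cells with empty vector 3 were higher and 1 lower, with a median log2 fold change of -0.08. Bmp7, a BMP ligand, was 21.3 ± 8.86 CPM in Tfh and 7.14 ± 2.39 CPM in non-Tfh cells (1.59, SE 0.392, adjusted p = 0.0194). Id2, a target gene of BMP signalling that also marks effector T cells, was 70.8 ± 17.0 and 694 ± 102 CPM (-3.30, SE 0.289, adjusted p = 0.000629), and Smad1, which transmits the BMP signal, 28.0 ± 7.44 and 19.8 ± 0.109 CPM (0.51, SE 0.174, adjusted p = 0.0498).

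Of 6 other genes of the C/EBP list 5 passed the filter. Cebpd, a member induced by inflammatory signals, was higher in Tfh cells, at 4.81 ± 0.717 against 2.20 ± 0.0313 CPM (log2 fold change 1.13, adjusted p = 0.0417), and Cebpz, listed here for its name only, was lower (-0.34, adjusted p = 0.0248). Cebpe, a factor of granulocytes, was at 0 in every library. Fam43b, the only relative of Fam43a, was also at 0 in every library.

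Of 12 other Csk and Src family genes around Matk, 9 passed the filter, 5 were higher in Tfh cells and 2 lower. Csk itself, which does the same job as Matk, was 283 ± 2.19 CPM in Tfh and 226 ± 9.56 CPM in non-Tfh cells (log2 fold change 0.32, SE 0.0779, adjusted p = 0.00811). The kinase gene Fyn, a substrate of Csk, was 1490 ± 40.6 and 794 ± 27.9 CPM (0.91, SE 0.0758, adjusted p = 1.37e-06). Pag1, the membrane adaptor that holds Csk, was 24.7 ± 0.625 and 64.0 ± 3.79 CPM (-1.37, SE 0.177, adjusted p = 9.3e-05), and Yes1, a Src family kinase, was lower as well (-2.74, SE 0.760, adjusted p = 0.0189).

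Of 17 other monocarboxylate transport genes 9 passed the filter, with 1 higher and 2 lower in Tfh cells with empty vector. Slc16a6, a transporter of the same family, was 13.0 ± 1.97 CPM in Tfh and 29.0 ± 3.84 CPM in non-Tfh cells (log2 fold change -1.16, SE 0.208, adjusted p = 0.00104). Slc16a1, the main lactate transporter gene of activated T cells, was 83.0 ± 5.18 and 107 ± 6.11 CPM (-0.37, SE 0.104, adjusted p = 0.0194). Ldhb, a lactate dehydrogenase subunit, was 18.2 ± 2.16 and 8.27 ± 1.05 CPM (1.14, SE 0.336, adjusted p = 0.0323). The vector effects in Tfh cells were -0.78 for Slc16a6 (adjusted p = 0.109) and -0.39 for Slc16a1 (adjusted p = 0.0824), neither past the threshold, and the median of the 9 was -0.27.

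Of 4 genes listed with Sccpdh for lysine breakdown and lipid droplets, 3 passed the filter. Aldh7a1, an enzyme of the saccharopine route, was 19.2 ± 3.35 CPM in Tfh and 10.4 ± 0.615 CPM in non-Tfh cells with empty vector (log2 fold change 0.89, SE 0.224, adjusted p = 0.0105). With Bach2 the same comparison gave 0.24 (edgeR adjusted p = 0.515). Aass, the enzyme that makes saccharopine and breaks it down, was at 0 in all libraries.

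Of 12 other genes listed with Tspan5 for ADAM10 and Notch, 7 passed the filter and 1 was called. Dtx1, a Notch target and regulator, was lower in Tfh cells, at 214.5 ± 12.7 against 326 ± 28.2 CPM (log2 fold change -0.60, SE 0.113, adjusted p = 0.0017). Adam10 itself was 341 ± 15.7 and 301.5 ± 10.6 CPM (adjusted p = 0.14), and Tspan14, another tetraspanin partner of ADAM10, 191 ± 20.6 and 166 ± 12.4 CPM (adjusted p = 0.149), neither past the threshold. Among 20 other tetraspanins 13 passed the filter, 6 were higher and 1 lower. Cd151 (1.38, adjusted p = 0.00966) and Cd81 (1.07, adjusted p = 0.0252), which organise integrins and coreceptors in the membrane, were higher, and Tspan2 (-1.11, adjusted p = 0.0262) lower. Of the family genes named above as called between cell types, Bmp7, Smad1, Cebpz, Ldhb, Aldh7a1, Cd151 and Cd81 were not called with Bach2. The others were, and Tspan14 was called only there (0.29, edgeR adjusted p = 0.0409).

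The nearest tested gene within 250 kb on each side of the 9 genes, and tested gene models overlapping them, made 17 neighbours. With empty vector 7 of the 17 were called higher in Tfh cells, against 10.6% of tested genes, and 2 were called lower, against 11.3%. The 7 include Gm11695, which overlaps Slc16a5, and Zfr2, which borders Matk. Whether their counts hold reads of those 2 chosen genes was not tested, so nothing is read from the 7. Of Padi4's neighbours, Rcc2 lies 22.6 kb away at a log2 fold change of -0.24 (adjusted p = 0.0904) and Padi2 132 kb away at -3.18. Beside Sostdc1, D630036H23Rik at 62.8 kb missed the threshold at 1.92 (SE 0.689, adjusted p = 0.0622), and Ankmy2 at 117 kb was higher in Tfh cells (0.50, adjusted p = 0.00274). Cebpg, 62.7 kb from Cebpa, was at 0.10 (adjusted p = 0.65), and Gpatch1 at 155 kb was higher (0.50, adjusted p = 0.0263). Kctd2 and Armc7, 31.2 and 1.27 kb from Slc16a5, were at -0.0019 and -0.02, although Slc16a5 itself was 13.7-fold higher in Tfh cells.

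The 2 neighbours with the highest values lay nearest to, or within, a gene of the 9. Zfr2 lies 0.812 kb from Matk on the same strand and was 1.99 ± 1.02 CPM in Tfh and 0.275 ± 0.0740 CPM in non-Tfh cells (log2 fold change 2.82, SE 0.658, adjusted p = 0.00687). Gm11695, the antisense model within Slc16a5, was at 3.49 (SE 0.570, adjusted p = 0.000505). Mrpl54, 1.35 kb from Matk on its other side, was at 0.38 (adjusted p = 0.0268), Rap1gds1, 18.0 kb from Tspan5, at 0.48 (adjusted p = 0.000736), and Cnst, 40.7 kb from Sccpdh, at 0.36 (adjusted p = 0.0415). Lsg1, 12.1 kb from Fam43a, was lower (-0.36, adjusted p = 0.0289). How reads were shared between Matk and Zfr2 was not tested.

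**Figure D5:**
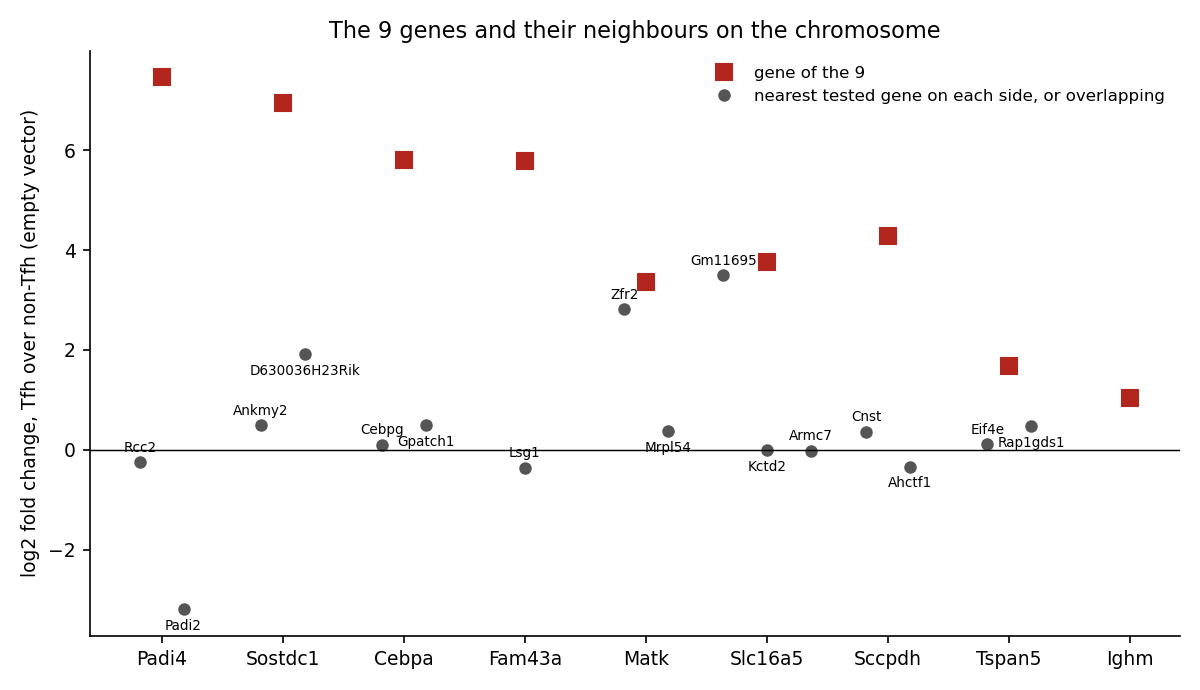
Log2 fold change of Tfh over non-Tfh cells with empty vector for the 9 genes (squares) and for the nearest tested gene on each side or overlapping (dots, with names). Ighg2c beside Ighm, which pooled only 2 counts in Tfh cells, is left out, and the Padi4 square rests on 1 pooled non-Tfh count. Zfr2 (2.82) and Gm11695 (3.49) have the highest values of the neighbours, and Padi2 lies at -3.18 under Padi4.

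Likeness across the 8 libraries was measured as Pearson's r of log2(CPM + 1), as a description: the points share libraries and the split between Tfh and non-Tfh cells sets most of each value. The mean profile of the 9 was most like Cxcr5 (r = 0.998), Nsmaf (0.998), Synj2 (0.997), Tnfsf8 (0.997) and Fas (0.997), and 885 genes exceeded r = 0.9. Slc16a5 and Tspan5 were each other's nearest gene (r = 0.997), followed for both by Fas. Sccpdh was nearest to P2rx7 (0.999) and Hpcal1, Fam43a to Nfatc1 and Lipa, and Matk to Dck and H2-Q2, whose counts are uncertain because of near-identical copies.

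Other profiles were nearest to other genes again. Padi4 was nearest to Rbms2 and Dck, Cebpa to Epdr1 and Bmi1, and Ighm to Csnk1g3 and St13. With a pseudocount of 0.25 in place of 1, the nearest gene became Dgkz for Padi4 and Ext1 for Sostdc1, and stayed the same for the other 7 genes and the mean profile.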

How the data were processed

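The values are whole-number counts per Ensembl gene, 1 deposited file per library, which the authors made with TopHat2, Bowtie2 and featureCounts on GRCm38 (mm10), per the submitters' processing notes. For versions, annotation, strand and multi-mapping settings the entry is: not given in the sources used here. Per the labels' protocols, libraries were made with Smart-Seq v4 and Nextera XT and sequenced in pairs. Symbols and positions came from GENCODE M21, which held 37607 of 39179 IDs. Total counts, 7862879 to 9889859 per library, set the precision.

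From the counts, genes were kept with filterByExpr (minimum count 10, total 15) and fitted together for the 8 libraries, with a coefficient for each of the 4 groups, trimmed mean of M-values (TMM) scaling (factors 0.985 to 1.01) and edgeR 4.0.16's robust quasi-likelihood test in R 4.3.3, which left 4 residual degrees of freedom. P-values were adjusted by Benjamini-Hochberg over 11475 genes, with 0.05 as threshold. The script was tested on simulated data. Ratios of pooled counts carry exact 95% counting intervals. RPKM used the union of exons.

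The 9 genes and all lists were chosen with earlier results of these data known. Named besides the 9 are, from each list, genes past the threshold for a vector effect, the 3 largest changes between cell types, or the gene with most counts; the nearest genes in position and profile; and Bach2, Cxcr5 and Pdcd1. Igkc, Cd79a and a few others were named after their values were seen. Some genes the rule names are not reported here. Alternatives were DESeq2 1.42.0, other size factors, no filter, a replicate block, leaving out each library, fitting 4 libraries only, another gene length and another pseudocount.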

Additional observations from a re-analysis of the deposited data

How the results depend on the processing

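For the 9 genes, 115 of 117 values of the vector effect in Tfh cells, 117 of 117 in non-Tfh cells and 108 of 108 of the difference stayed on the same side of the threshold. The 2 exceptions were Cebpa in Tfh cells, which passed with no filter on low counts (-0.63, adjusted p = 0.00860) and with the replicate number as a block (-0.64, SE 0.167, adjusted p = 0.0400); the cause was not tested. For Padi4, Sostdc1, Cebpa and Fam43a, non-Tfh counts were too few for an informative test, so their unchanged non-Tfh and difference values show little. The estimates of Padi4, Sostdc1, Fam43a, Sccpdh and Ighm in Tfh cells, none past the threshold, changed sign over the alternatives, for example from -0.57 to 0.60 for Sostdc1. Of 234 values of Tfh over non-Tfh cells 18 moved by over 1 SE and none changed sign, and 6 of 9 RPKM values and 2 of 10 nearest genes moved.

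The counts of genes called over all tested genes moved more. With no filter 736 genes were called for the vector effect in Tfh cells, 332 in non-Tfh cells and 37 for the difference, and with DESeq2 326, 161 and 4. With the replicate block the counts were 473, 207 and 3. The labels do not say what a shared number means. Deviations of same-numbered samples correlated at 0.0263 and 0.129 between vectors (Tfh, non-Tfh) and at 0.208 and 0.240 between cell types (empty vector, Bach2), so a pairing across vectors was not established. Leaving out each library in turn gave 15 to 237 genes for the vector effect in Tfh cells (15 without empty vector Tfh replicate 2), 14 to 127 in non-Tfh cells, 0 to 1 for the difference, 1340 to 2688 for Tfh over non-Tfh cells with empty vector and 1916 to 2715 with Bach2. A lone library was assumed to vary like the other groups. At 0 to 21 counts per non-Tfh library, vector effects on Padi4, Sostdc1, Cebpa and Fam43a are limited by counting, and with 2 libraries a group those of Sostdc1 by its replicates.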
